A study of Mus musculus with 12 samples.

Results

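The miRNAs described here are the arms of miR-143, miR-145a, miR-199a, miR-199b and miR-214, a set best known from mesenchymal cells. All 10 mature arm names that this covers were listed in the table of liver miRNAs, in 9 of its 386 rows, because miR-199a-3p and miR-199b-3p share 1 row. The rows fall into 4 of the cluster of miR-143 and miR-145a and 5 of miR-199 and miR-214. They were picked out by name, with earlier results of these data known.

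The livers of 12 wild type C57BL/6 male mice, killed fasted at postnatal day 84, were profiled by small RNA sequencing in a design that crossed the mother's diet with the son's. The groups were OO (mother and son both on the obesogenic diet), OC (obesogenic mother, control-fed son), CO (control mother, obesogenic-fed son) and CC (both on control chow), with 3 libraries each. The obesogenic diet held 10% simple carbohydrates and 20% lipids and came with sweetened condensed milk, and the control chow held 7% and 3%. The 35 dams stayed on their diet until weaning at day 21, and litters had been set to 6 pups on day 3. The labels do not give the litter of each son, so litter-mates could be among the libraries, and p-values measure only the spread between these 12 libraries. Sample titles begin with 1 prefix for obesogenic and another for control mothers, so anything behind that prefix and the maternal diet cannot be told apart. Titles of control-fed sons all end in the same letter, and those of obesogenic-fed sons, except OO replicate 2, end in other letters. What that letter marks is not stated, and it largely follows the sons' diet. OC replicate 2 and OO replicate 3 share the stem of their titles, and what the stem marks is not stated.

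MicroRNAs are short RNAs cut from a hairpin precursor, whose 5p and 3p arms can each be loaded into an Argonaute protein and guide it to messenger RNAs, mainly through the seed near the 5′ end. miR-143 and miR-145a are made from separate hairpins of 1 longer transcript and are abundant in smooth muscle cells, pericytes and fibroblasts. They are known for keeping smooth muscle cells in their contractile state. The hairpin of miR-214 and 1 hairpin of miR-199a, Mir199a-2, lie in an antisense transcript of a dynamin gene, Dnm3os. miR-199a and miR-214 are known from mesenchyme and from activated hepatic stellate cells, the collagen-producing pericytes of the liver. In human liver miR-199a-3p has also been reported as abundant, and the cells that its reads came from were not measured here. The liver origin of the libraries was visible in hepatocyte miRNAs, with miR-122-5p between 19991 and 28851 CPM in every library, where CPM is the count per 1000000 reads.

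The mature sequences of 5 of the 10 names, all miR-199 or miR-214 arms, are shown from RefSeq (GRCm38.p6). The seed, bases 2 to 8, is in capitals, with U for the RNA base. No sequence was found there for miR-199b-5p. The miR-143 and miR-145a arms were left out by choice, which says nothing about whether RefSeq lists them. The sequences show why miR-199a-3p and miR-199b-3p could not be counted apart, since the letters are identical. The other arms shown differ in their seeds.
miR-199a-5p: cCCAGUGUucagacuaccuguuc
miR-199a-3p: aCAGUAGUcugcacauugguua
miR-199b-3p: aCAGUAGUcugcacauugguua
miR-214-5p: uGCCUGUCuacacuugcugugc
miR-214-3p: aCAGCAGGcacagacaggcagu

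The 3p sequence of miR-199 is present in 3 hairpins on different chromosomes, so its row can hold reads from all of them. The miR-199a-5p sequence is present in both Mir199a-2 and Mir199a-1, so its row can hold reads from outside Dnm3os too. The hairpins are given 5′ to 3′ with the mature arms that RefSeq lists in capitals.
Mir199a-2: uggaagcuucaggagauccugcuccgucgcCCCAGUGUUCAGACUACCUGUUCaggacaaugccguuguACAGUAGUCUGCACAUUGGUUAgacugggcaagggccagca
Mir199a-1: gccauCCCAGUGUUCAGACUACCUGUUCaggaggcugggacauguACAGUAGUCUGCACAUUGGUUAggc
Mir199b: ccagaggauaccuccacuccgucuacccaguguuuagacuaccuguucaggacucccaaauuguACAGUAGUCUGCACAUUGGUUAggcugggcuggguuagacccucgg
Mir214: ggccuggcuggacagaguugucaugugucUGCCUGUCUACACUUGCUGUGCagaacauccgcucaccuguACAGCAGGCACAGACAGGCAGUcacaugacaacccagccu

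Mir199a-2 lies on the plus strand at chr1:162217814-162217923 and Mir214 on the same strand at chr1:162223368-162223477, with 5444 bases between them, both in an exon of Dnm3os and opposite an intron of Dnm3. Mir199a-1 lies on the minus strand at chr9:21496495-21496564, opposite an intron of Dnm2. Mir199b lies on the plus strand at chr2:32318460-32318569, opposite an intron of Dnm1. Mir143 and Mir145a lie on the minus strand of chromosome 18 with 1301 bases between them, in no other gene of GENCODE vM21.

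All values are the CPM of the authors' table. Reads were inferred from the equal steps between its values. Depth on that scale ran from 5.45 M reads in CO replicate 3 to 22.2 M reads in OC replicate 1. CO replicate 3 also stood apart in level, with a median miRNA 0.20 below the mean of all libraries on the log2 scale. CPM ranks miRNAs by reads, which can differ from their order by molecules, and in bulk liver fewer cells of a type and less RNA per cell cannot be told apart.

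By mean CPM, miR-143-3p was 7th of 386 rows at 36163 ± 4985 CPM (SD, n = 12) and held 3.58% of the summed values. The shared miR-199a-3p row was 49th, at 1140 ± 144 CPM, and held 0.113%. miR-145a-5p (208 ± 61.9 CPM), miR-199a-5p (178 ± 29.2) and miR-145a-3p (128 ± 11.8) ranked 98th, 108th and 125th. The remaining arms were scarce. miR-214-3p averaged 30.9 ± 6.15 CPM, miR-214-5p 11 ± 2.22, miR-143-5p 9.04 ± 1.65 and miR-199b-5p 6.08 ± 1.32 CPM. Each arm was above 0 in every library, as was each of the 386 rows, but the scarcest rest on few reads. The lowest values were 28 reads of miR-199b-5p, 46 of miR-214-5p and 55 of miR-143-5p, all in CO replicate 3.

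No arm of the set passed the test in any of the 8 comparisons made. The test was limma on log2(CPM + 1) over all 386 rows with Benjamini-Hochberg adjustment, and an adjusted p under 0.05 passed. The smallest adjusted p of any arm was 0.288. The means of all 5 miR-199 and miR-214 rows were highest in OO at the deposited scaling, and those of miR-143-3p and miR-143-5p were lowest there.

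In OO livers miR-199a-5p had 214, 218 and 220 CPM. In OC livers it had 170, 187 and 160 CPM, in CO livers 168, 193 and 128, and in CC livers 173, 167 and 141. All 3 OO libraries lay above the other 9, and the other 3 groups overlapped one another. The group means were 217 ± 3.29 CPM in OO, 172 ± 13.5 in OC, 163 ± 32.5 in CO and 160 ± 16.7 in CC (SD, n = 3 each). OC, CO and CC differed by less than their own spread.

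The shared row of miR-199a-3p and miR-199b-3p had 1294, 1365 and 1280 CPM in OO. It had 1179, 1178 and 1003 CPM in OC, 1042, 1227 and 931 in CO, and 1177, 1080 and 924 in CC. Here too the OO libraries lay above the rest, the closest being CO replicate 2. The means were 1313 ± 45.6 CPM in OO, 1120 ± 102 in OC, 1066 ± 150 in CO and 1060 ± 128 in CC, of which the last 3 did not differ beyond their spread. This separation of OO from the other 9 libraries was looked for after the values were seen, and 15 of 386 rows (3.89%) showed it in the same direction. The scaling was also replaced by TMM and by median-of-ratios factors, which bring libraries to a common level by their typical miRNA and not by their total. Under both, miR-199a-5p stayed above the other 9 in OO, where 1.55% and 1.30% of rows did, and miR-199a-3p did not.

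**Figure D1:**
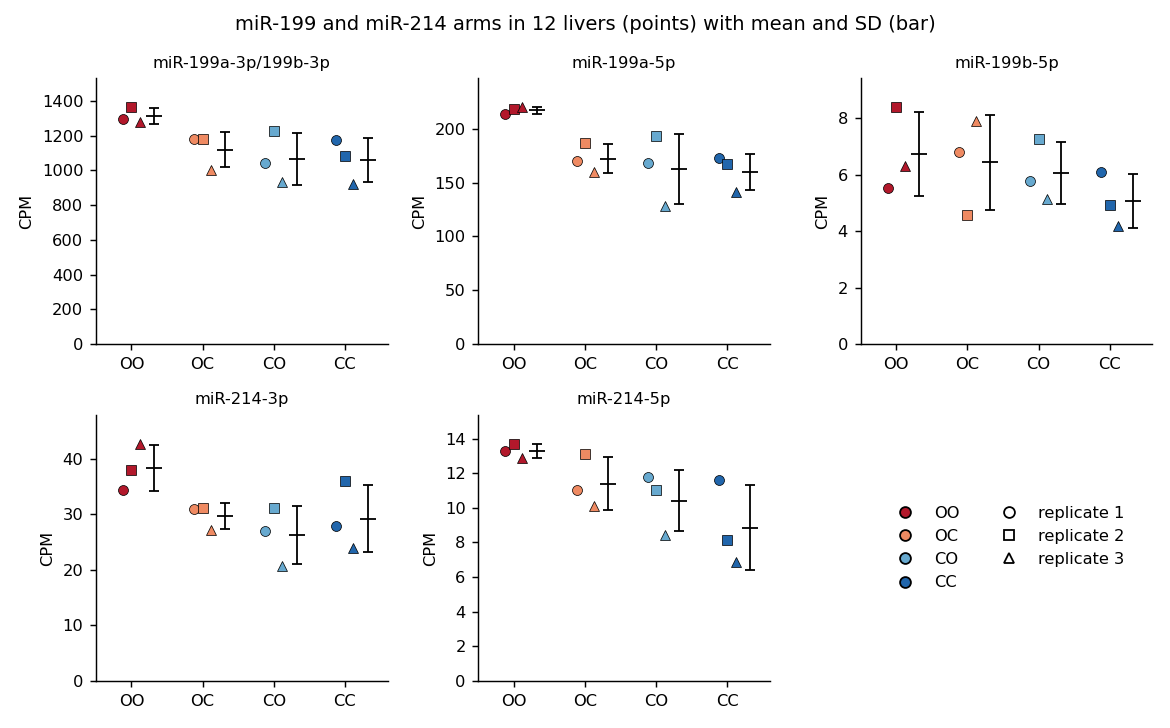
CPM of the 5 rows of miR-199 and miR-214 (vertical axes, from 0) in OO, OC, CO and CC livers, with 1 point per library and the mean and SD of 3 libraries as a bar. The OO points of miR-199a-5p, between 214 and 220 CPM, and of the shared miR-199a-3p row, between 1280 and 1365 CPM, lie above all others, whereas those of miR-199b-5p lie among them.

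miR-214-3p, whose hairpin shares the Dnm3os transcript with 1 of the miR-199a hairpins, had 34.3, 37.9 and 42.7 CPM in OO. It had 31.0, 31.1 and 27.1 CPM in OC, 26.9, 31.1 and 20.7 in CO, and 27.8, 35.9 and 24.0 in CC. OO lay above OC and CO but overlapped CC, whose replicate 2 exceeded the lowest OO library. Its other arm, miR-214-5p, had 13.3, 13.7 and 12.9 CPM in OO and 11, 13.1 and 10.1 CPM in OC. It had 11.8, 11 and 8.44 CPM in CO and 11.6, 8.16 and 6.85 CPM in CC. OO lay above CO and CC for this arm and overlapped OC. miR-199b-5p ran from 5.52 to 8.41 CPM in OO, 4.59 to 7.92 in OC, 5.14 to 7.28 in CO and 4.20 to 6.09 in CC, so all 4 groups overlapped.

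The effect of the mother's diet in obesogenic-fed sons was taken from OO against CO. miR-214-3p had a log2 change of 0.54 (SE 0.185, 95% interval 0.14 to 0.95) and miR-199a-5p of 0.43 (SE 0.152, 0.10 to 0.77), each with a limma adjusted p of 0.307. The shared miR-199a-3p row had 0.31 (SE 0.130, adjusted p = 0.371), miR-214-5p 0.33 (adjusted p = 0.396) and miR-199b-5p 0.12 (adjusted p = 0.810), all by limma. No member passed, and 0 of 386 rows (0%) did. Over all rows the median log2 change was 0.13 here, against -0.01 with TMM and 0.02 with median-of-ratios factors. Relative to that median the changes were 0.41 for miR-214-3p, 0.30 for miR-199a-5p, 0.17 for miR-199a-3p, 0.20 for miR-214-5p and -0.01 for miR-199b-5p. With log2 depth as a covariate the log2 changes themselves were 0.48, 0.34, 0.22, 0.22 and -0.01 in the same order. Of the 9 members, 5 lay fully higher in OO, where 16.3% of all rows did, and 2 fully lower, where 2.85% did. At an unadjusted limma p under 0.05 there were 4 members, where 12.2% of all rows were. The 5 were miR-145a-3p, miR-199a-3p, miR-199a-5p, miR-214-3p and miR-214-5p, and the 2 were miR-143-3p and miR-143-5p. With TMM or median-of-ratios factors OO lay fully higher for miR-199a-5p and miR-214-3p, where 5.70% and 6.74% of rows did, and fully lower for miR-143-5p, where 8.29% and 7.25% did.

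Markers of other cells were also read in this comparison, at the deposited scaling only. There 272 of all 386 rows were higher in OO than in CO and 114 lower, with a median log2 change of 0.13. All 6 leukocyte miRNAs that were measured, of 8 listed, were higher in OO than in CO, with a median log2 change of 0.41 and summed levels of 3041 to 3383 CPM in OO, against 2270 to 3028 CPM in CO. The 2 endothelial miRNAs measured of 4 listed, both arms of miR-126, were also higher, with a median of 0.36 and sums of 24420 to 28052 CPM in OO, against 15584 to 22984 CPM in CO. The 4 erythroid miRNAs measured, of 5 listed, were lower, with a median of -0.55 and sums of 2943 to 4532 CPM in OO, against 4252 to 8999 CPM in CO. None of these markers passed by limma. Like each of the 386 rows, they were above 0 in every library. Their part in the values of the miR-199 and miR-214 arms was not tested. CO replicate 3 was the lowest of the 12 libraries for miR-199a-5p and miR-214-3p. Without it the log2 changes were 0.27 and 0.39.

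The effect of the son's diet after obesogenic-fed mothers was taken from OO against OC. miR-214-3p had a log2 change of 0.35 (SE 0.185), miR-199a-5p of 0.34 (SE 0.152) and the shared miR-199a-3p row of 0.23 (SE 0.130), with limma adjusted p of 0.740, 0.673 and 0.794. miR-214-5p stood at 0.21 and miR-199b-5p at 0.07. Of the 9 members, 0 passed, where 0.518% of all rows did. The groups did not overlap for 3 members, the miR-199a-3p row, miR-199a-5p and miR-214-3p, all higher in OO, where 10.4% of all rows were, and 0 members lay fully lower, where 5.18% of rows did. With TMM factors miR-199a-5p and miR-214-3p lay fully higher and miR-143-5p fully lower, where 9.59% and 6.22% of rows did. With median-of-ratios factors the same 2 lay fully higher and both miR-143 arms fully lower, where 7.77% of rows did in each direction. At an unadjusted limma p under 0.05 there was 1 member, miR-199a-5p, where 7.25% of rows were. The median log2 change of the 5 miR-199 and miR-214 rows was 0.23, against 0.02 over all rows. With log2 depth as a covariate all 5 log2 changes were larger here, from 0.20 for miR-199b-5p to 0.43 for miR-199a-5p.

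With both diets changed, OO against CC, the log2 change was 0.56 for miR-214-5p (SE 0.192, 95% interval 0.14 to 0.98) and 0.44 for miR-199a-5p (SE 0.152, 0.11 to 0.77), both with a limma adjusted p of 0.288. It was 0.39 for miR-214-3p, 0.34 for miR-199b-5p and 0.31 for the miR-199a-3p row, with limma adjusted p of 0.413, 0.536 and 0.338. All 5 were positive, with a median of 0.39, against 0.05 over all rows. Depth ran from 10.5 to 21.5 M reads in OO and from 7.47 to 13.3 M reads in CC. With log2 depth as a covariate all 5 log2 changes were smaller. They were 0.42 for miR-214-5p, 0.33 for miR-199a-5p, 0.32 for miR-214-3p, 0.18 for miR-199b-5p and 0.21 for the miR-199a-3p row. Of the 9 members 0 passed, where 0.259% of all rows did, and 3 lay fully higher in OO, where 14.0% of all rows did, with 0 members fully lower, where 8.03% did. With TMM factors the same 3 lay fully higher, where 13.5% of rows did, and with median-of-ratios factors miR-199a-5p and miR-214-5p, where 12.2% did. Under both, miR-143-5p lay fully lower, where 9.84% and 11.1% of rows did. At an unadjusted limma p under 0.05 there were 4 members, where 12.2% of rows were. These 3 comparisons share the OO libraries, so their values are not independent of one another.

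Averaged over the sons' diet, mothers on the obesogenic diet went with log2 changes of 0.34 for miR-214-5p, 0.29 for miR-214-3p, 0.27 for miR-199a-5p and 0.20 for both the miR-199a-3p row and miR-199b-5p. miR-199a-5p averaged 195 ± 26.3 CPM after obesogenic mothers, against 162 ± 23.1 CPM after control mothers (SD, n = 6 each). For miR-214-3p the means were 34.0 ± 5.59 CPM after obesogenic mothers and 27.7 ± 5.31 CPM after control mothers. No member passed by limma (adjusted p from 0.579 to 0.918), and 0 of 386 rows (0%) did. Over all rows the median log2 change was 0.08, against 0.01 with TMM and 0.02 with median-of-ratios factors. Libraries after obesogenic mothers were deeper, at 10.5 to 22.2 M reads, against 5.45 to 15.0 M reads after control mothers. With log2 depth as a covariate the log2 changes were 0.16 for miR-214-5p, 0.20 for miR-214-3p, 0.12 for miR-199a-5p, 0.06 for the miR-199a-3p row and -0.02 for miR-199b-5p. At an unadjusted limma p under 0.05 there were 4 members, where 6.99% of rows were, and the groups overlapped for all 9, where 0.777% of rows lay fully higher and 0% fully lower. The sons' own diet, averaged over the mothers', gave log2 changes of 0.10 to 0.22 for the 5 rows, with limma adjusted p from 0.489 to 0.766. No member passed, where 0.777% of all rows did, and 0 members had an unadjusted limma p under 0.05, where 14.8% of rows had. The groups overlapped for all 9 members, where 0.518% of rows lay fully higher and 2.07% fully lower. For 8 of the 9 members the 95% interval of the sons' diet excluded a change of 1.5-fold in either direction, where 268 of 386 rows did. In OO against CO and in OO against CC only 2 of the 9 members did, where 144 and 169 of 386 rows did.

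The remaining pairs of groups were CO against CC, the sons' diet after control mothers, and OC against CC, the mothers' diet in control-fed sons. Log2 changes of the 5 miR-199 and miR-214 rows ran from -0.15 to 0.23 in CO against CC and from 0.04 to 0.35 in OC against CC. No member passed in either, where 0.777% and 0% of all rows did. The smallest unadjusted limma p of a member was 0.230 in CO against CC and 0.0945 in OC against CC, where 16.3% and 1.04% of all rows were under 0.05. At the deposited scaling, at which the median miRNA of CO replicate 3 is low, no member separated the groups in either comparison, where in CO against CC 5.70% of rows lay fully higher and 16.3% fully lower, and in OC against CC 4.40% in each direction. With TMM factors miR-199b-5p lay fully higher in CO than in CC, where 13.2% of rows did and 10.9% lay fully lower. The interaction asked whether the effect of the sons' diet depended on the mother's. It was 0.50 for miR-214-3p (SE 0.262, 95% interval -0.07 to 1.08), 0.33 for miR-199a-5p and 0.23 for the miR-199a-3p row, each with a limma adjusted p of 0.773, and 0% of all rows passed. No member had an unadjusted limma p under 0.05, where 3.89% of rows had. The median interaction over all rows was 0.13, against -0.01 with TMM factors.

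**Figure D2:**
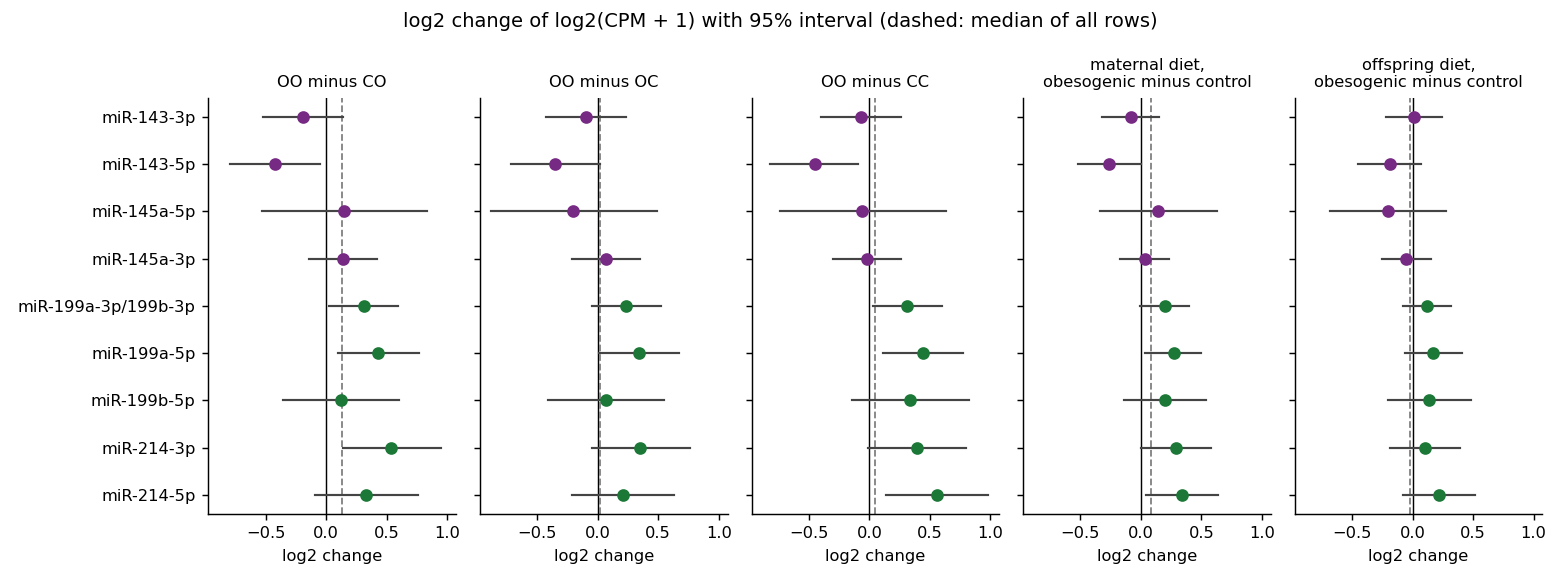
Log2 change of each row on the log2(CPM + 1) scale (horizontal axes) with its 95% interval from limma, for 5 comparisons, obesogenic minus control or OO minus the named group, with miR-199 and miR-214 rows in green, miR-143 and miR-145a rows in purple and a dashed line at the median over all 386 rows. In OO minus CC the green points lie between 0.31 and 0.56 and the purple ones between -0.45 and -0.02, and no point passed after adjustment.

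miR-143-3p, the main arm of its hairpin, held 98.7% to 99.4% of the summed CPM of the miR-143 and miR-145a rows. It had 35007, 34107 and 32021 CPM in OO, 37931, 34570 and 35743 in OC, 35963, 35218 and 44972 in CO, and 46645, 31520 and 30260 in CC. OO lay just below CO and overlapped OC and CC. CC replicate 1 and CO replicate 3 were the highest of the 12 libraries, and the remaining 10 lay between 30260 and 37931 CPM. The log2 change was -0.19 in OO against CO (limma adjusted p = 0.494), -0.10 in OO against OC, -0.07 in OO against CC, -0.08 for the maternal diet and 0.01 for the sons' diet (SE 0.107, 95% interval -0.22 to 0.24). The last value was negative on leaving out any of 5 libraries, so it has no stable sign.

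miR-143-5p, the scarce arm of the same hairpin, had 6.52, 6.59 and 8.02 CPM in OO. It had 9.60, 7.91 and 10.3 CPM in OC, 9.31, 9.76 and 10.1 in CO, and 12.0, 10.4 and 7.96 in CC. OO lay below CO, and its replicate 3 exceeded 1 library each of OC and CC. With TMM or median-of-ratios factors all 3 OO libraries lay below the other 9, which was looked for after the values were seen and which 3 of 386 rows (0.777%) showed under each. The means were 7.05 ± 0.845 CPM in OO, 9.26 ± 1.22 in OC, 9.72 ± 0.392 in CO and 10.1 ± 2.02 in CC (SD, n = 3 each), of which the last 3 did not differ beyond their spread. The log2 change was -0.42 against CO (SE 0.168), -0.35 against OC and -0.45 against CC, with limma adjusted p of 0.371, 0.700 and 0.302. For the maternal diet it was -0.26 (limma adjusted p = 0.579) and for the sons' diet -0.19 (limma adjusted p = 0.489).

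miR-145a-5p, an arm known for targeting Klf4, a repressor of smooth muscle genes, was the most variable of the set. It had 188, 210 and 195 CPM in OO, 355, 161 and 203 in OC, 178, 249 and 126 in CO, and 286, 175 and 172 in CC. Its highest library, OC replicate 1, had 2.81 times the CPM of its lowest, CO replicate 3, and these are the deepest and the shallowest of the 12. The groups overlapped, and the log2 changes were 0.15 in OO against CO, -0.20 in OO against OC, -0.06 in OO against CC, 0.14 for the maternal and -0.20 for the sons' diet, with SE from 0.220 to 0.311 and limma adjusted p from 0.739 to 0.982. With log2 depth as a covariate the maternal value was -0.26 and that of OO against OC 0.05. miR-145a-3p stayed between 117 and 156 CPM over all libraries, and its log2 changes lay between -0.16 and 0.14 in the comparisons between groups. The positive value in OO against CO turned to -0.01 with TMM factors.

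A related row, miR-145b, is not counted among the members but resembles miR-145a-5p closely in sequence. Reads may therefore be split between them or counted in both. It held 3.67 to 7.98 CPM, equal to 2.08% to 3.25% of miR-145a-5p in the same library, and was highest and lowest in the same libraries as miR-145a-5p.

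**Figure D3:**
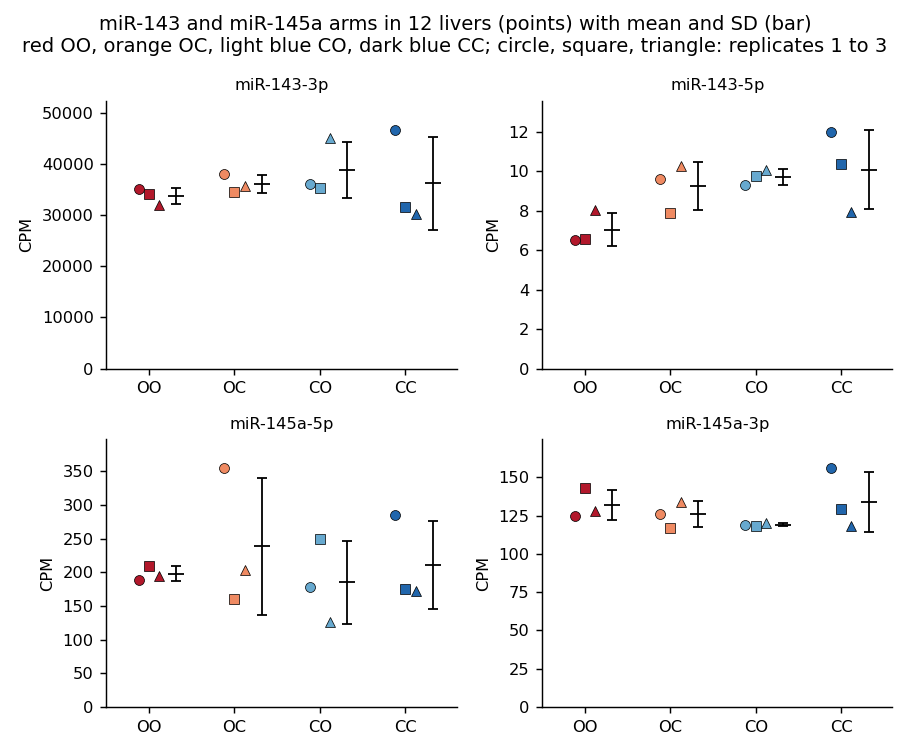
CPM of the 4 rows of miR-143 and miR-145a (vertical axes, from 0) in OO, OC, CO and CC livers, with 1 point per library and the mean and SD of 3 libraries as a bar. miR-143-5p lies between 6.52 and 8.02 CPM in OO and reaches 12.0 CPM in CC, and miR-145a-5p spreads from 126 to 355 CPM.

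The ratio of the 3p and 5p arms of a miRNA within a library does not depend on the scaling. For miR-143 the 3p arm exceeded the 5p arm by 5366, 5172 and 3992 times in OO, 3951, 4371 and 3475 times in OC, 3861, 3610 and 4454 times in CO, and 3903, 3019 and 3802 times in CC. The mean was 4843 ± 743 in OO, against 3575 ± 484 in CC, and OO overlapped OC and CO. For miR-199a the ratio of the shared 3p row to the 5p arm was the steadiest, at 6.04 ± 0.216 in OO, 6.51 ± 0.370 in OC, 6.61 ± 0.566 in CO and 6.60 ± 0.174 in CC (SD, n = 3 each). It was lowest in OO replicate 3, at 5.82, and highest in CO replicate 3, at 7.25. Both miR-199a arms can come from Mir199a-1 and from Mir199a-2, so this ratio pools hairpins. Reads of miR-199b-3p are also in it, and their number is not known. miR-199b-5p reached only a small level beside miR-199a-5p, which had 20.2 to 40.6 times its CPM. The Mir199b hairpin holds a stretch that closely resembles miR-199a-5p, so reads may be split between these rows or counted in both.

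For miR-214 the 3p arm had 2.27 to 4.39 times the CPM of the 5p arm, with the highest ratio in CC replicate 2. For miR-145a the 5p arm had 1.05 to 2.81 times the CPM of the 3p arm, with the extremes again in CO replicate 3 and OC replicate 1. In OO this ratio was 1.51, 1.46 and 1.53, closer together than in any other group. All arm ratios are descriptions and were not tested.

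Across the hairpins, miR-143-3p had 27.1, 25.0 and 25.0 times the CPM of the miR-199a-3p row in OO. The ratio was 32.2, 29.3 and 35.6 in OC, 34.5, 28.7 and 48.3 in CO, and 39.6, 29.2 and 32.8 in CC. All 3 OO libraries lay below the other 9, the closest being 27.1 in OO replicate 1 and 28.7 in CO replicate 2. The ratio does not depend on the scaling, but the miR-199a-3p row was already seen to be highest in OO. It is therefore not a separate result, and how many other pairs of rows separate in this way was not counted.

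**Figure D4:**
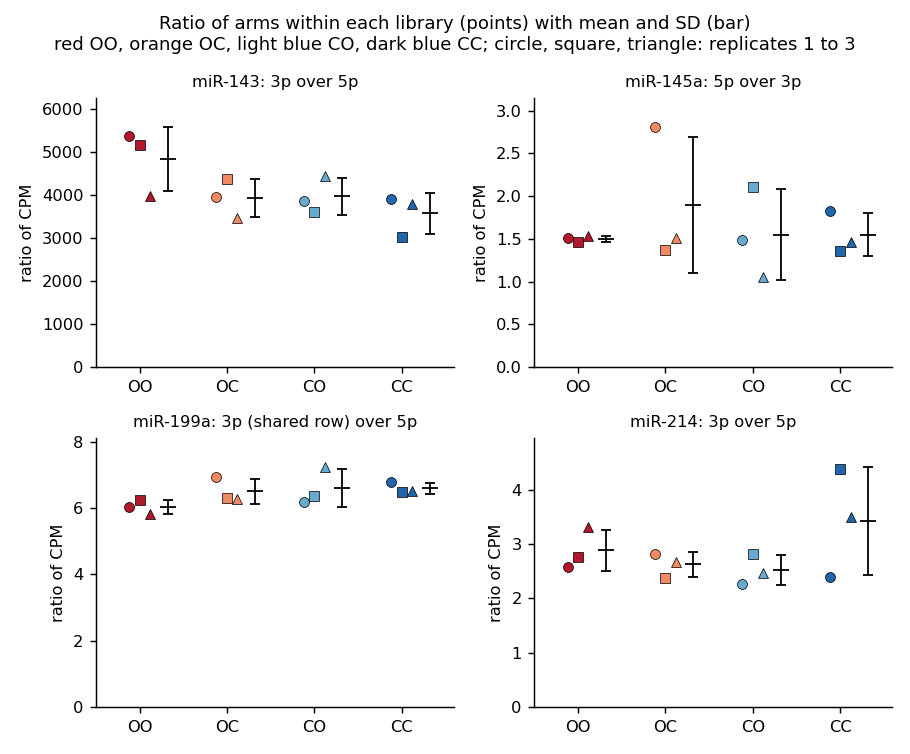
Ratio of the CPM of the arms of miR-143, miR-145a, miR-199a and miR-214 within each library (vertical axes, from 0) by group. Bars give the mean and SD of 3 libraries, and the miR-199a panel pools hairpins. The miR-199a ratio stays between 5.82 and 7.25, and the miR-145a ratio spreads from 1.05 to 2.81.

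Whether arms that come from 1 cluster of hairpins varied together over the same livers was asked in 6 pairs. The most abundant arm of each of miR-143, miR-145a, miR-199a and miR-214 was used. The miR-199a-3p row can also hold reads from hairpins outside the cluster with miR-214. The miR-199a-3p row and miR-214-3p varied together over the 12 libraries at the deposited scaling, with Pearson's r = 0.84 (permutation p = 0.000740, adjusted p = 0.00444) and Spearman's rho = 0.83 (permutation p = 0.00141, adjusted p = 0.00846). Without the 2 libraries farthest from the median of miR-199a-3p, CC replicate 3 and CO replicate 3, r was 0.68. OO libraries are high on both axes, and with group means subtracted r was 0.70 (exact permutation p within groups = 0.0910, adjusted p = 0.273). With TMM or median-of-ratios factors r was 0.67 and 0.69, and the relation missed the threshold (permutation adjusted p = 0.0964 and 0.0741).

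For miR-143-3p and miR-145a-5p the relation did not pass, with r = 0.18 (permutation p = 0.579, adjusted p = 0.695) and rho = 0.34 (permutation p = 0.278, adjusted p = 0.417). Without CC replicate 1 and CO replicate 3, the libraries highest in miR-143-3p, r was 0.61. Across the clusters no pair passed. For miR-143-3p with miR-199a-3p r was -0.11 and rho -0.14 (permutation p = 0.737 and 0.668, adjusted p = 0.737 and 0.668), and without CC replicate 1 and CO replicate 3 r was 0.27. For miR-143-3p with miR-214-3p r was -0.50 and rho -0.50 (permutation p = 0.100 and 0.0983, adjusted p = 0.265 and 0.197), and without the same libraries r was -0.12. For miR-145a-5p with miR-199a-3p r was 0.46 and rho 0.50 (permutation p = 0.132 and 0.0981, adjusted p = 0.265 and 0.197), and 0.33 without OC replicate 1 and CO replicate 3. For miR-145a-5p with miR-214-3p r was 0.29 and rho 0.26 (permutation p = 0.363 and 0.415, adjusted p = 0.544 and 0.497), and -0.03 without those.

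**Figure D5:**
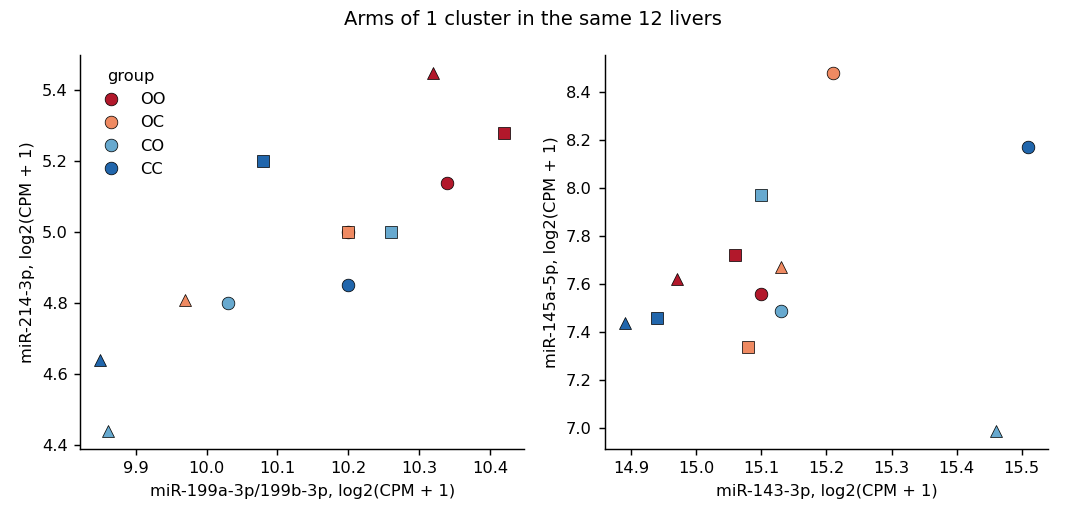
Log2(CPM + 1) of miR-214-3p against the shared miR-199a-3p row (left) and of miR-145a-5p against miR-143-3p (right), 1 point per library, coloured by group with a circle, square and triangle for replicates 1, 2 and 3; OC replicates 1 and 2 coincide on the left. The left points follow r = 0.84 and the right ones r = 0.18.

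Among the 254 other rows with a mean of at least 10 CPM, those most like miR-143-3p over the 12 libraries were miR-10b-5p (r = 0.79), miR-181a-5p (0.74), miR-122-5p (0.58), miR-100-5p (0.56) and miR-181b-5p (0.54). Those most like the miR-199a-3p row were miR-450a-5p (r = 0.81), miR-223-3p (0.78), miR-335-3p (0.77), miR-335-5p (0.75) and miR-210-3p (0.72). miR-223-3p, a miRNA of neutrophils and macrophages, averaged 178 ± 22.6 CPM in OO, 114 ± 6.09 in OC, 142 ± 52.1 in CO and 116 ± 7.76 in CC. These rows were picked as the highest of all and share the scaling of each library, so r ranks them and is not a test.

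Other miRNAs associated with mesenchymal and stellate cells were set beside the members. Of a list of 14 further mesenchymal miRNAs 12 were measured, and 0 passed in any of the 8 comparisons by limma. In OO against CO their median log2 change was 0.03, with 6 higher and 6 lower, where the miR-199 and miR-214 rows had a median of 0.33 and all rows 0.13. In OO against CC it was 0.11, against 0.39 for the miR-199 and miR-214 rows. The most abundant of the list were miR-10b-5p, a miRNA encoded in a Hox cluster, at 1469 ± 243 CPM in OO, 1705 ± 808 in OC, 1836 ± 769 in CO and 1540 ± 511 in CC, and miR-125b-5p, at 994 ± 34.8 CPM in OO, 878 ± 106 in OC, 1001 ± 146 in CO and 887 ± 96.4 in CC.

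Of 15 miRNAs studied in stellate cell activation and fibrosis all were measured, and 0 passed by limma in any of the 8 comparisons. In OO against CO 12 were higher and 3 lower, with a median log2 change of 0.22. Of all 386 rows 272 were higher there, with a median of 0.13. miR-21a-5p, a miRNA induced in many fibrotic tissues, averaged 44889 ± 9996 CPM in OO, 47252 ± 9950 in OC, 55405 ± 3778 in CO and 49599 ± 4056 in CC. miR-27b-3p averaged 26124 ± 2671 CPM in OO, 25136 ± 785 in OC, 26392 ± 2004 in CO and 24167 ± 252 in CC. Of the 4 muscle miRNAs listed miR-1a-3p, miR-133a-3p and miR-133b-3p were measured, with miR-133a-3p at 399 ± 639 CPM in OO, 296 ± 210 in OC, 175 ± 153 in CO and 411 ± 336 in CC, and miR-1a-3p at 17.4 ± 27.5 CPM in OO, 13.0 ± 9.50 in OC, 12.2 ± 8.71 in CO and 19.9 ± 15.3 in CC. The sum of the muscle list ran from 22.0 to 1220 CPM in OO, 58.3 to 470 in OC, 95.5 to 384 in CO and 75.4 to 797 in CC. Within each group that spread was wider, as highest over lowest, than that of any miR-143 or miR-145a arm.

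The remaining marker lists likewise had 0 miRNAs past the limma test in any of the 8 comparisons. All 5 hepatocyte miRNAs were measured, and in OO against CO 3 were higher and 2 lower, with a median log2 change of 0.03. miR-122-5p averaged 20931 ± 1367 CPM in OO, 23988 ± 1692 in OC, 24087 ± 4198 in CO and 24650 ± 927 in CC. miR-192-5p, the most abundant of them, averaged 250177 ± 2758 CPM in OO, 236046 ± 11719 in OC, 263431 ± 28555 in CO and 235743 ± 4514 in CC. All 6 epithelial miRNAs were measured, and in OO against CO 2 were higher and 4 lower, with a median of -0.14. The most abundant were miR-203-3p and miR-200b-3p, and miR-203-3p averaged 1813 ± 138 CPM in OO, 1750 ± 166 in OC, 1568 ± 133 in CO and 1685 ± 93.8 in CC. miR-200b-3p averaged 190 ± 37.0 CPM in OO, 182 ± 78.6 in OC, 212 ± 52.1 in CO and 166 ± 32.3 in CC. In OO against OC and in OO against CC the leukocyte list had medians of -0.11 and 0.02. Of its 6 miRNAs 1 and 3 were higher, where 209 and 219 of 386 rows were. The endothelial pair had medians of 0.12 and 0.03 in these comparisons. Of the leukocyte list miR-142-5p, a miRNA of blood cells, averaged 2274 ± 150 CPM in OO, 2473 ± 568 in OC, 1949 ± 413 in CO and 2312 ± 277 in CC, and miR-146a-5p 362 ± 69.9 CPM in OO, 394 ± 80.9 in OC, 362 ± 136 in CO and 343 ± 44.6 in CC. Of the endothelial list miR-126-5p averaged 21565 ± 1627 CPM in OO, 20021 ± 197 in OC, 16017 ± 3320 in CO and 20964 ± 1155 in CC, and miR-126-3p 4657 ± 219 CPM in OO, 4268 ± 336 in OC, 3861 ± 525 in CO and 4606 ± 266 in CC. The erythroid miR-451a averaged 1081 ± 186 CPM in OO, 1146 ± 257 in OC, 1612 ± 880 in CO and 1073 ± 250 in CC, and the row of miR-486-5p, shared with miR-3107-5p, 2268 ± 592 CPM in OO, 2517 ± 757 in OC, 3950 ± 1611 in CO and 2211 ± 426 in CC.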

How the data were processed

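Per the labels' protocols, total liver RNA was extracted with miRNeasy columns and made into TruSeq small RNA libraries. The submitters' processing notes list Bowtie 1.2.3. Neither the build and miRNA reference nor the handling of multiply matching reads is given in the sources used here. What the authors deposited is 1 table of CPM for 386 mature miRNA rows and 12 libraries, with 0 values at 0. Each library's CPM came in equal steps, 100% of them whole to within 0.001 reads, which gave depth (median 13.2 M reads) and the reads behind a value. Columns were matched to samples by the column number in each description.

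The members and lists were chosen with earlier results of these data known. limma 3.58.1 in R 4.3.3 was fitted to log2(CPM + 1) of all rows, with 1 mean per group, a mean-variance trend and 8 contrasts, two-sided. The added 1 makes log2 changes of scarce miRNAs too small. Correlations used 100000 permutations with scipy 1.17.1, two-sided. The fit was also run on simulated data in which all rows shared 1 spread setting, unlike these data. Its outcome is not reported here, and no result rests on it. Alternatives were TMM and median-of-ratios factors, pseudocounts of 0.25 and 5, a mean of at least 10 CPM, the groups compared alone, log2 depth as a covariate, and each library left out. Named miRNAs were all members, the 5 rows most like miR-143-3p and miR-199a-3p, and of each list those that passed and the 2 most abundant.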

Additional observations from a re-analysis of the deposited data

How the results depend on the processing

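No member passed by limma in any of the 8 comparisons under any alternative run, and the smallest adjusted p reached was 0.0768, in OO against CC. For OO against CO, OC and CC and for the averages over maternal and sons' diet, single members were followed through the alternatives. Of their 287 log2 changes under the settings that kept all libraries of a comparison, 275 kept their sign and 12 did not. The groups compared alone and the filter of at least 10 CPM leave a log2 change as it was. Values under those settings could not change sign, so the count of kept signs overstates stability. With TMM factors miR-145a-3p went to 0.01 for the sons' diet, -0.05 for the maternal diet and -0.01 in OO against CO, where miR-145a-5p went to -0.0050 and miR-199b-5p to -0.01. With median-of-ratios factors miR-145a-3p went to -0.04 for the maternal diet. With log2 depth as a covariate miR-145a-5p went to 0.05 in OO against OC, -0.26 for the maternal diet and -0.11 in OO against CO, miR-145a-3p to -0.04 for the maternal diet, and miR-199b-5p to -0.02 for the maternal diet and -0.01 in OO against CO. On leaving out 1 library, 20 of 540 changed sign. For a pair of groups, leaving out a library of another group cannot alter the log2 change, so part of the 540 was fixed. Ranges that crossed 0 were, for miR-143-3p, -0.05 to 0.11 (sons' diet), -0.14 to 0.02 (maternal diet) and -0.19 to 0.13 (OO against CC). For miR-145a-3p they were -0.09 to 0.01, -0.01 to 0.09 and -0.11 to 0.10 in the same order. For miR-145a-5p they were -0.02 to 0.27 (maternal diet), -0.18 to 0.18 (OO against CC), -0.09 to 0.39 (OO against CO) and -0.44 to 0.13 (OO against OC). For miR-199b-5p they were -0.02 to 0.24 (OO against CO) and -0.13 to 0.21 (OO against OC). The causes were not tested. The r of miR-143-3p with miR-199a-3p became 0.15 with TMM factors, 0.10 with median-of-ratios factors and 0.16 with group means subtracted, and that of miR-145a-5p with miR-214-3p became -0.06 with TMM factors. For miR-199a-3p with miR-214-3p these 3 settings gave 0.67, 0.69 and 0.70, each short of the threshold.

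Over all rows the sons' diet called 3 (0 higher, 3 lower), but 7 with TMM (2 higher, 5 lower) and 8 with median-of-ratios factors (2 higher, 6 lower). Over all alternatives the count ran from 1 to 10 in CO against CC (3 as reported), 0 to 2 in OO against OC (2) and 1 to 3 in OO against CC (1), 0 to 2 in OO against CO (0) and 0 to 1 for the maternal diet and the interaction (0 each). The planned count models on inferred reads were not run. The smallest value of a library stood for 1 to 20 reads, so that a check of whole reads that starts from the smallest value as 1 read was not met. No paired analysis was possible because the labels number no replicates and the numbers used here only follow accession order. The scarce arms, at 28 to 295 reads, limit what could be detected for miR-143-5p, miR-199b-5p and miR-214-5p.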

Other observations

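After the values had been seen, each of the 9 members was set against log2 depth over the 12 libraries. With Benjamini-Hochberg adjustment over the 9, the lowest adjusted p was 0.0843 for 3 members. These were miR-145a-5p (Pearson's r = 0.67, permutation p = 0.0169, adjusted p = 0.0843; Spearman's rho = 0.64, permutation p = 0.0300, adjusted p = 0.181), miR-214-5p (r = 0.64, permutation p = 0.0261; rho = 0.47, permutation p = 0.127, adjusted p = 0.30) and miR-199b-5p (r = 0.63, permutation p = 0.0281; rho = 0.61, permutation p = 0.0402, adjusted p = 0.181). Without CO replicate 3 and CC replicate 2, the farthest in depth, r was 0.47, 0.42 and 0.62 for these. For the miR-199a-3p row r was 0.57 and rho 0.46 (permutation adjusted p = 0.122 and 0.30), and for miR-199a-5p 0.53 and 0.40 (permutation adjusted p = 0.134 and 0.361), with r of 0.36 and 0.18 without those libraries. The remaining 4 members had r from -0.22 to 0.36 and permutation adjusted p from 0.366 to 0.840. None of the 9 relations passed after adjustment.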
